A study of Mus musculus with 30 samples.

Results

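CLIP-seq recovers the RNA that a protein holds in living cells: ultraviolet light crosslinks RNA to protein, the protein is precipitated, and the attached RNA fragments are amplified and sequenced. The 10 CLIP libraries described here, of 30 libraries in all, were made with A1CF from plated hepatocytes of 12-week-old mice labelled A1cf_Tg/+. All 10 carry the same labels. They were divided into 2 sets by their own counts: 5 libraries in which the gene Itpripl2 held more than 5% of all gene counts (libraries 1, 3, 4, 6 and 10, the Itpripl2 set), and 5 in which the noncoding gene Pantr1 held more than 5% (libraries 2, 5, 7, 8 and 9, the Pantr1 set). Every library met one of these criteria and none met both. Because the sets were chosen from the counts, the gene shares that separate them are given as descriptions, with no test between the sets.

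A1CF is an RNA-binding protein of hepatocytes, enterocytes and kidney that is known as the APOBEC1 complementation factor. It binds the apolipoprotein B transcript, Apob, beside an AU-rich site and helps the deaminase APOBEC1 turn a cytidine into a uridine there, which gives the shorter form of the protein. Its other RNA targets in liver are known in less detail. A CLIP library of A1CF is therefore read as a list of transcripts, ranked by the share of counts each one holds.

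RNA-seq served as the background: 3 pools of hepatocytes labelled A1cf_Tg/+ (Tg) and 3 of C57BL/6J wild type (WT), all from 12-week-old mice, and 3 pools of livers labelled A1cf_-/- (knockout, KO) and 3 of C57BL/6NJ wild type (WT 6NJ), all 12 months old. Each RNA pool held RNA of 3 to 4 mice, and the labels do not say whether the CLIP libraries came from separate mice. The promoter behind the transgene is not given in the sources used here, and CLIP of an input, of wild-type or of knockout cells was not analysed here. A1cf RNA, the check of the labels, was 9.23 ± 1.64 CPM (counts scaled to a common library total) in hepatocytes labelled Tg and 9.35 ± 2.51 CPM in WT hepatocytes (SD, n = 3 each). The libraries labelled Tg thus did not hold more A1cf reads than WT. In liver, A1cf was 24.5 ± 4.39 CPM in KO and 213 ± 20.8 CPM in WT 6NJ (SD, n = 3 each).

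Per the labels, hepatocytes were irradiated with 400 mJ/cm2 at 254 nm and RNA was cut with RNase T1, which cleaves after guanosine. Adapters were then ligated on the beads. The cDNA was amplified for 40 cycles and, after gel purification, for another 35 cycles with an indexed primer. The adapters and first-round primers below are the designed sequences through which every counted CLIP fragment passed. They are written as the labels give them, 5′ to 3′, and the capitals in the primers mark their last 7 bases, the end from which the polymerase extends.
RL5a-TYE705: agggaggacgaugcgg
RL3-biotin: ggcgaccuucacugacugug
DP5a: agggaggacGATGCGG
DP3: ccgctggaagtgaCTGACAC
DP5a has the letters of adapter RL5a. DP3 pairs with RL3 when RL3 is read from the other end, so the label may write that adapter backwards.

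The CLIP libraries were shallow. Totals over all genes ran from 8037 to 10902 counts in the Itpripl2 set and from 6151 to 7209 counts in the Pantr1 set, against 26144213 to 37211328 counts in the RNA libraries of hepatocytes labelled Tg. A gene at 0 could still hold up to 0.0275% to 0.0373% of a library of the Itpripl2 set, and up to 0.0416% to 0.0488% of one of the Pantr1 set, taking 3 counts as the limit. The reads were copied by PCR and carried no molecular identifier that the labels name, so these limits and all intervals cover counting error only.

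The Itpripl2 gene held 14.5%, 10.8%, 11.6%, 10.5% and 11.6% of counts in libraries 1, 3, 4, 6 and 10 of the Itpripl2 set. In libraries 2, 5, 7, 8 and 9 of the Pantr1 set it held 0.0145%, 0%, 0.0555%, 0.0431% and 0.0146%. Between the lowest of the first and the highest of the second lay the wide gap from 10.5% to 0.0555%. For library 6, which had the lowest of these shares in the Itpripl2 set, the 95% Wilson interval ran from 9.87% to 11.1%. Itpripl2 is a gene of 1 exon of 6862 bases on chromosome 7 (GRCm38, 118485114 to 118491975, minus strand).

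Pantr1 held 0.113%, 0.199%, 0.156%, 0.302% and 0.146% of counts in libraries 1, 3, 4, 6 and 10. In libraries 2, 5, 7, 8 and 9 it held 16.1%, 17.0%, 16.5%, 18.5% and 15.9%. The threshold of 5% thus lay far from every value, since the nearest were 15.9% and 0.302%. Pantr1 is a long intergenic noncoding RNA named for its place beside Pou3f3, a neural transcription factor gene. It lies on chromosome 1 (GRCm38, 42590782 to 42694842, minus strand) and its transcripts cover 4458 exonic bases. It was not wholly absent from the Itpripl2 set, where it had 86 counts in all, whereas Itpripl2 had 9 counts in the whole Pantr1 set.

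The split reached far beyond these 2 genes. Among 295 genes with at least 20 counts over the 10 libraries, which together held 83.4% of all 80854 counts, 78 genes (26.4%) had a higher share in every library of the Itpripl2 set than in any of the Pantr1 set, and 77 genes (26.1%) had the reverse order. Those of them with a mean share of at least 0.05% in their own set are called leading genes: 71 for the Itpripl2 set and 77 for the Pantr1 set. Nothing is read from these counts beyond the description, as the sets were formed from the same libraries.

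The 71 leading genes of the Itpripl2 set held 71.4% to 77.7% of counts in its own libraries (median 72.8%) and 0.423% to 0.854% in libraries of the Pantr1 set. The 77 leading genes of the Pantr1 set held 0.382% to 0.925% of counts in libraries of the Itpripl2 set and 54.7% to 68.1% in their own (median 63.0%). Each library was therefore made up mostly of genes that the libraries of the other set held at near 0. Of the leading genes, 36 of 71 had no count in any library of the Pantr1 set, and 34 of 77 had none in any of the Itpripl2 set.

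**Figure D1:**
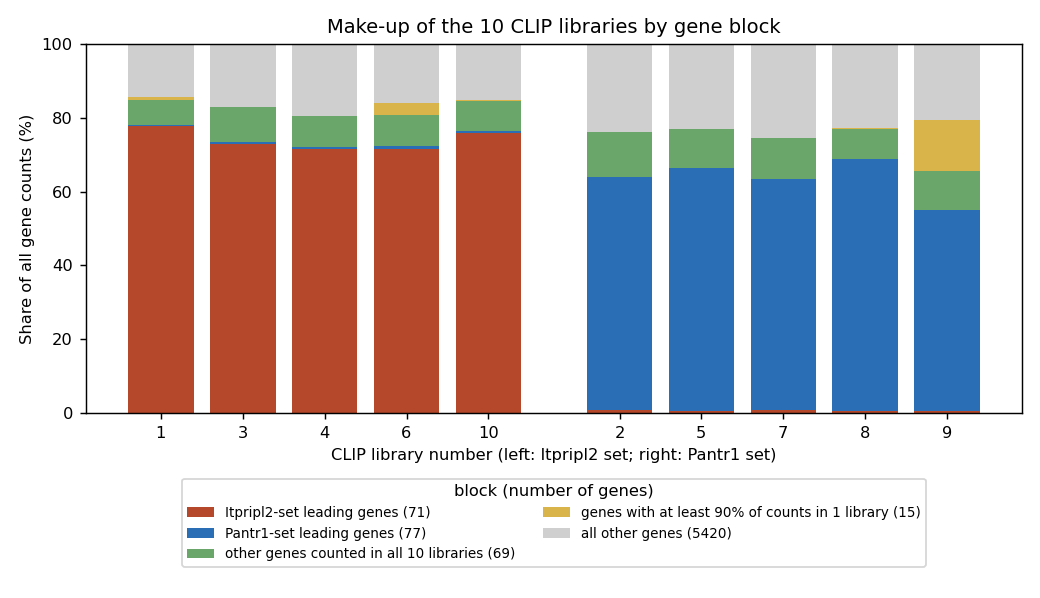
Stacked bars give the share of all gene counts (%) that 5 blocks of genes held in each CLIP library, with the Itpripl2 set on the left and the Pantr1 set on the right. Leading genes of the Itpripl2 set filled 71.4% to 77.7% of its libraries, leading genes of the Pantr1 set filled 54.7% to 68.1% of theirs, and library 9 gave 13.7% to genes counted almost wholly in 1 library.

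After Itpripl2, the highest shares in the Itpripl2 set belonged to Fignl2, Zfhx3 and Ggta1. Fignl2, a member of the fidgetin-like ATPase family on chromosome 15, held 10.3%, 10.2%, 10.4%, 9.70% and 10.7% of libraries 1, 3, 4, 6 and 10, against 0.0145%, 0%, 0.0416%, 0.0287% and 0.0438% of libraries 2, 5, 7, 8 and 9. Its pooled share was 388-fold higher in the Itpripl2 set. Zfhx3, a homeobox and zinc finger transcription factor on chromosome 8, held 8.37%, 10.4%, 7.45%, 11.7% and 11.2% of the Itpripl2 set. In the Pantr1 set Zfhx3 held 0.347%, 0.114%, 0.0277%, 0.0718% and 0.102%, so its ratio of 73.6 was the smallest among the first 4 genes. Ggta1 encodes the galactosyltransferase that makes the alpha-Gal epitope. It held 7.72% to 9.73% of the Itpripl2 set and 0.0144% to 0.0290% of the Pantr1 set.

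Nos3, the endothelial nitric oxide synthase, stood out for having no count at all in the Pantr1 set. It held 5.19%, 5.81%, 5.14%, 5.56% and 5.67% of libraries 1, 3, 4, 6 and 10, or 2548 counts, and 0 counts in libraries 2, 5, 7, 8 and 9. Taking 3 counts over the whole Pantr1 set as the limit, its share was at least 619-fold higher in the Itpripl2 set. Nos3 lies on chromosome 5 (GRCm38, 24364810 to 24384474) and some of its exonic bases also belong to 2 other annotated genes. Pkdcc, a secreted tyrosine kinase, and Foxd1, a forkhead transcription factor, had no count in the Pantr1 set either. Pkdcc held 0.955% to 1.28% of the Itpripl2 set, and Foxd1 0.660% to 1.07%.

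Grin3b, a subunit of glutamate-gated NMDA channels, held 3.39% to 4.38% of the Itpripl2 set and at most 0.0163% of a Pantr1-set library. Fzd10, a Frizzled receptor for Wnt ligands, held 7.01%, 2.64%, 5.33%, 0.553% and 0.513% of libraries 1, 3, 4, 6 and 10, and at most 0.0145% of a library of the Pantr1 set. Its highest share was 13.7 times its lowest within the Itpripl2 set, the widest such range among the 15 genes that headed this set. Adarb1, which encodes an enzyme of adenosine-to-inosine RNA editing, held 0.805% to 1.96% of the Itpripl2 set and at most 0.0277% of a Pantr1-set library. Map3k10, a mixed-lineage kinase, held 0.603% to 0.706% and at most 0.0146%.

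Ppia, Specc1l and Abcc12 also stood among the heads of the Itpripl2 set. Ppia encodes cyclophilin A and held 2.65% to 3.92% of the set, with 1 count in the whole Pantr1 set. Ppia has many near-identical processed copies in the genome, among which reads can be divided, so its values are uncertain. Specc1l, which links actin and microtubules, held 1.01% to 2.04% of the Itpripl2 set. Abcc12, a transporter of the ABC family, held 0.587% to 0.866%.

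In the Pantr1 set the second gene was Wnt11, a secreted Wnt ligand on chromosome 7. It held 0.0206%, 0.0373%, 0.0183%, 0.111% and 0.0244% of libraries 1, 3, 4, 6 and 10 of the Itpripl2 set, against 10.8%, 11.6%, 10.3%, 11.0% and 11.2% of libraries 2, 5, 7, 8 and 9. The Pantr1-set libraries lay close together, with a mean of 11.0% ± 0.475 (SD, n = 5). Me1, the cytosolic malic enzyme that supplies NADPH for fatty acid synthesis, held at most 0.0610% of a library of the Itpripl2 set, and 5.31%, 6.10%, 6.15%, 5.75% and 3.05% of libraries 2, 5, 7, 8 and 9. Library 9 was thus low for Me1.

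Myh7b, a myosin heavy chain of muscle, held 0% to 0.0302% of the Itpripl2 set and 4.09% to 5.92% of the Pantr1 set. F11r, a junctional adhesion molecule, held 0% to 0.0249% of the Itpripl2 set and 1.43%, 1.24%, 1.53%, 1.28% and 0.613% of libraries 2, 5, 7, 8 and 9, so library 9 was low here too. Lamb2, a laminin chain of basement membranes, had no count in the Itpripl2 set and held 0.445% to 0.569% of the Pantr1 set. Cdh24, a cadherin, held at most 0.0124% of a library of the Itpripl2 set and 0.666% to 0.875% of the Pantr1 set.

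Eif2ak3 encodes the kinase of the unfolded protein response that phosphorylates the initiation factor eIF2. It held 0% to 0.0603% of the Itpripl2 set and 2.51% to 3.62% of the Pantr1 set. Acvrl1, a receptor of the TGF-beta family, held at most 0.0201% of an Itpripl2-set library and 2.43% to 3.01% of the Pantr1 set. Atp6v0a4, a proton pump subunit, and Acer1, an alkaline ceramidase, held 1.10% to 1.29% and 0.666% to 0.964% of the Pantr1 set, and at most 0.0122% each of a library of the Itpripl2 set. Ptchd1, a patched-domain membrane protein, had no count in the Itpripl2 set and held 0.409% to 0.738% of the Pantr1 set. Trim35, a tripartite motif protein, and Prkce, a protein kinase C, held 0.680% to 0.878% and 0.521% to 0.715% of the Pantr1 set.

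**Figure D2:**
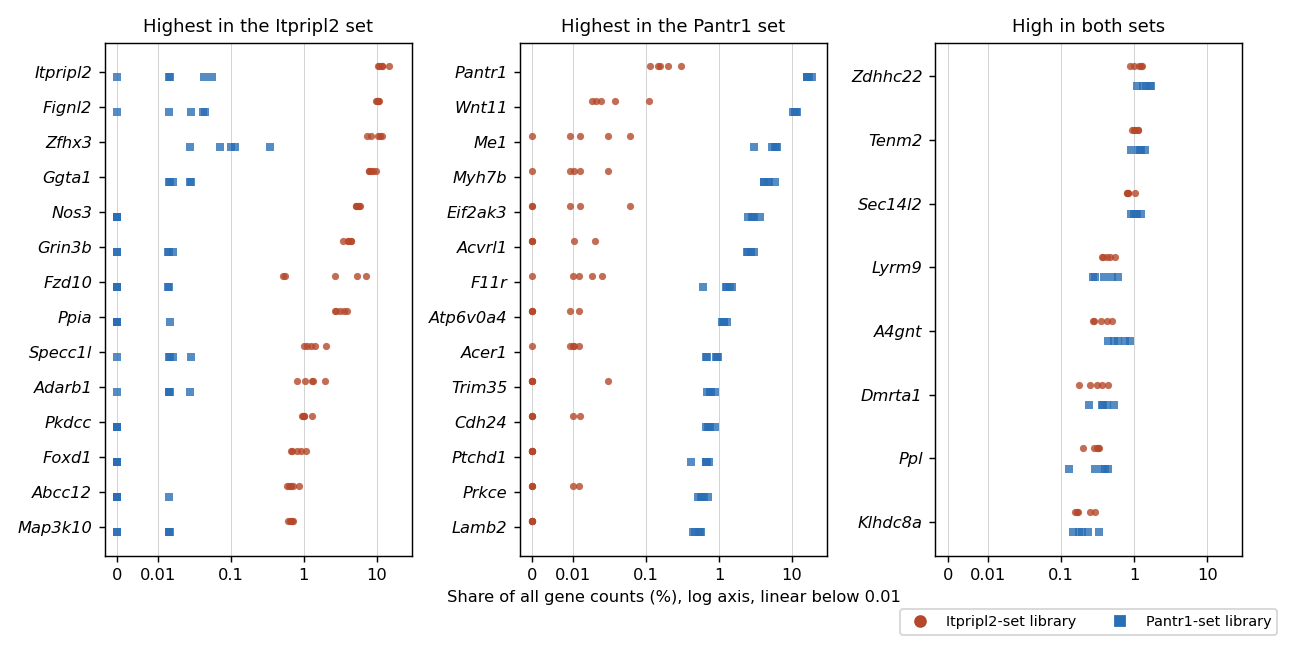
Points give the share of all gene counts (%, log axis, linear below 0.01) of single genes in each CLIP library, with circles for the 5 libraries of the Itpripl2 set and squares for the 5 of the Pantr1 set. The genes shown at the head of each set do not overlap between the sets, because they were chosen so, while the 8 genes high in both sets lie side by side.

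Among the 15 heads of each set, most but not all varied little from library to library. Those of the Itpripl2 set had a median coefficient of variation of 15.8% over its 5 libraries, and 12 of them ranged by less than 2-fold. The 15 heads of the Pantr1 set had a median coefficient of variation of 10.8%, and 13 ranged by less than 2-fold. The exceptions in the Itpripl2 set were Fzd10, Specc1l and Adarb1. Those in the Pantr1 set were Me1 and F11r, both lowest in library 9.

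A small group of genes was high in both sets. The 8 with the highest smaller mean held 3.80% to 5.13% of the Itpripl2 set together and 4.20% to 6.50% of the Pantr1 set. Zdhhc22, a palmitoyltransferase, held 0.887%, 1.29%, 1.00%, 1.16% and 1.22% of libraries 1, 3, 4, 6 and 10, and 1.71%, 1.46%, 1.32%, 1.11% and 1.65% of libraries 2, 5, 7, 8 and 9. Tenm2, a teneurin adhesion protein, averaged 1.04% ± 0.0876 in the Itpripl2 set and 1.18% ± 0.190 in the Pantr1 set (SD, n = 5 each). For both genes the shares of the sets overlapped. Sec14l2, a lipid-transfer protein, averaged 0.851% ± 0.102 in the Itpripl2 set and 1.06% ± 0.123 in the Pantr1 set, A4gnt 0.365% ± 0.0951 and 0.641% ± 0.181, and Lyrm9 0.434% ± 0.0723 and 0.407% ± 0.137 in that order of sets (SD, n = 5 each). Dmrta1, Ppl and Klhdc8a held 0.206% to 0.304% on average in the Itpripl2 set and 0.216% to 0.390% in the Pantr1 set. Apart from genes that did not overlap between the sets, 69 genes were counted in all 10 libraries with at least 20 counts, and together they held 6.82% to 9.38% of the Itpripl2 set and 8.31% to 12.2% of the Pantr1 set.

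Across the 71 leading genes of the Itpripl2 set, their pooled shares in both sets had a Spearman correlation of 0.51, and across the 77 of the Pantr1 set it was 0.48. The genes were chosen so that every share in their own set exceeds every share in the other, which bears on these values, and nothing is read from them. Genes are not independent replicates, and 58 of the 71 and 65 of the 77 genes had 3 counts or fewer in the other set.

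The likeness of 2 libraries was measured as the overlap of shares, which adds up the smaller of the 2 shares over all genes and is 100% for libraries of identical make-up. Over the 10 pairs within the Itpripl2 set it ran from 74.0% to 80.9% (median 78.2%). Over the 10 pairs within the Pantr1 set it ran from 66.4% to 78.3% (median 77.2%). Over the 25 pairs across the sets it ran from 9.69% to 13.4% (median 11.8%), so no pair across the sets came near the least alike pair within one.

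**Figure D3:**
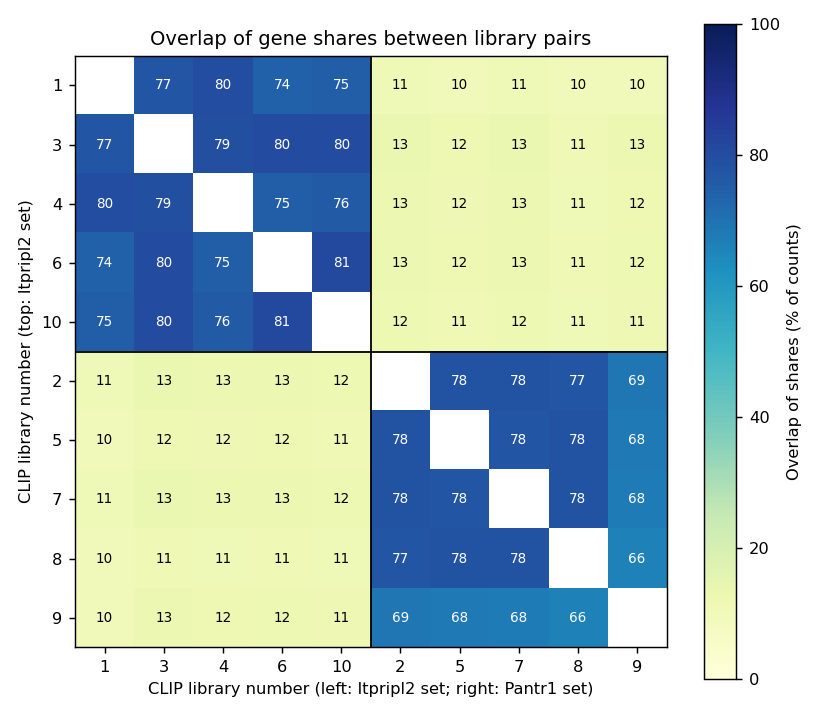
Each square gives the overlap of gene shares (% of counts) of 2 CLIP libraries, with the Itpripl2 set first, and black lines part the sets. Pairs within a set overlap by 66.4% to 80.9% and pairs across the sets by 9.69% to 13.4%, and library 9 is the least like the others of its set.

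No 2 libraries were alike within counting noise. A chi-square statistic of gene counts per degree of freedom, which lies near 1 when a pair differs by counting noise, was 3.38 to 12.3 within the Itpripl2 set, 1.63 to 15.7 within the Pantr1 set and 75.9 to 113 across the sets. The statistic takes reads as independent, which PCR copies are not, so it does not show that the libraries are separate samples. As no pair of the 45 agreed within counting noise, all 10 libraries were kept. This statistic also grows with depth, and the Itpripl2 set was the deeper one. The lowest values were in the Pantr1 set, where the 6 pairs without library 9 gave 1.63 to 2.57. The 4 pairs with library 9 gave 13.9 to 15.7 and overlapped by 66.4% to 69.0%, against 77.0% to 78.3% for the other 6.

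Library 9 held 7 genes that were counted almost wholly in it, and it also differed from the rest of the Pantr1 set without them. A gene of this kind, with at least 90% of its counts in 1 library, was found 15 times among the 295: 7 in library 9, 4 in library 6, 3 in library 1 and 1 in library 4. The 7 in library 9 held 13.7% of its counts, among them Gm5529 (a processed pseudogene, 3.49%), Dgki (a diacylglycerol kinase, 3.20%) and Matn4 (a matrilin of extracellular matrix, 2.26%), and the others were Rhbdl3, Cep63, Hid1 and BC035044. The 4 in library 6 held 3.26%, of which Chrne, a subunit of the muscle acetylcholine receptor, held 2.50%. These 15 genes were singled out after their values were seen. Without them, library 9 overlapped the other libraries of the Pantr1 set by 70.8% to 73.2%, still less than the 77.0% to 78.4% among those 4, with a chi-square statistic per degree of freedom of 4.34 to 5.52.

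Within the Itpripl2 set, some pairs of libraries were more alike than others, though not as separate groups. Libraries 1 and 4 gave a chi-square statistic per degree of freedom of 5.32 with each other, and libraries 6 and 10 gave 4.77, whereas 1 or 4 with 6 or 10 gave 8.37 to 12.3. Library 3 lay near both pairs, at 6.16 and 3.83 with libraries 1 and 4 and 5.10 and 3.38 with libraries 6 and 10. Spearman correlations across genes did not set libraries 6 and 10 apart. Theirs was 0.785, against 0.782 to 0.814 for 1 or 4 with 6 or 10. Fzd10 was high in libraries 1 and 4 (7.01% and 5.33%), lower in library 3 (2.64%) and lowest in libraries 6 and 10 (0.553% and 0.513%). Zfhx3 ran the other way, at 8.37% and 7.45% in libraries 1 and 4 and 11.7% and 11.2% in libraries 6 and 10.

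Shares of RNA classes are given as a description, because the rule asked for a high share of the noncoding gene Pantr1 in the Pantr1 set. That by itself raises the long noncoding share there and lowers the protein-coding share. Protein-coding genes held 96.6% to 97.2% of the Itpripl2 set and 77.0% to 79.3% of the Pantr1 set. Long noncoding genes held 2.38% to 2.92% of the Itpripl2 set and 18.4% to 21.7% of the Pantr1 set, which was mostly Pantr1 itself: without Pantr1 these genes held 2.27% to 2.61% and 2.53% to 3.80% of all counts. Pseudogenes held 0.224% to 0.431% of the Itpripl2 set and 0.416% to 4.19% of the Pantr1 set, the highest in library 9, where Gm5529 held 3.49%. Ribosomal RNA genes held 0.00917% to 0.0732% of the Itpripl2 set and had no count in the Pantr1 set. The lowest of these shares lay below the 0.0416% to 0.0488% that 0 counts still allow in a Pantr1-set library.

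Markers of hepatocytes, the labelled cell type, were nearly absent from the CLIP libraries of both sets. The 30 listed markers had 13 counts over all 10 libraries, and 23 of them had none. They held 0% to 0.0302% of a library of the Itpripl2 set, 0.0139% to 0.0292% of one of the Pantr1 set, and 9.89% to 11.6% of counts in the RNA libraries of hepatocytes labelled Tg. Albumin, Alb, had 2 counts in the Itpripl2 set and 2 in the Pantr1 set, while its RNA level was 36945 ± 5178 CPM (SD, n = 3). The labelled cell type can thus be read from the RNA libraries and not from the CLIP libraries.

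The known A1CF target was likewise near 0. Apob had 2 counts in the Itpripl2 set, 1 each in libraries 4 and 6, and 0 in the Pantr1 set. Its RNA was at 578, 704 and 3157 CPM in the 3 pools of hepatocytes labelled Tg. A1cf itself had no CLIP count. The 9 listed factors of apolipoprotein B mRNA editing held 0.00917% to 0.0244% of the Itpripl2 set and 0% to 0.0579% of the Pantr1 set, with Hnrnpab highest at 7 counts in all. The 20 lipoprotein genes held 0% to 0.0201% of the Itpripl2 set and 0% to 0.0139% of the Pantr1 set, against 2.24% to 2.52% of RNA counts. These shares lie at or below the limit that 3 counts set, apart from the highest of the editing factors, in library 2.

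Other abundant RNA of hepatocytes was as scarce. The 37 mitochondrially encoded genes had no count in any CLIP library and held 1.39% to 3.48% of RNA counts in hepatocytes labelled Tg. The 91 cytoplasmic ribosomal protein genes held 0.0101% to 0.0459% of the Itpripl2 set and 0% to 0.0146% of the Pantr1 set, against 0.763% to 1.00% of RNA counts. Of 9 translation factors, Eef2, the elongation factor that moves the ribosome, had 10 counts in the Itpripl2 set and 0 in the Pantr1 set. The 9 listed translation factors together held 0.705% to 0.749% of RNA counts.

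A few listed genes did carry CLIP counts, of which Des and Hnrnpa0 did not overlap between the sets. Des, the muscle and stellate cell intermediate filament desmin, held 0.444%, 0.460%, 0.413%, 0.342% and 0.476% of libraries 1, 3, 4, 6 and 10, and 0% or, in library 5, 0.0163% of the Pantr1 set. It made up nearly all of the stellate cell list, whose 8 genes held 0.362% to 0.488% of the Itpripl2 set and 0% to 0.0488% of the Pantr1 set, with 199 of the list's 209 counts in Des. Hnrnpa0, an RNA-binding protein of the hnRNP family, had 2 counts in the Itpripl2 set and 29 in the Pantr1 set. It led the 26 hnRNP and splicing factor genes, which held 0.0183% to 0.0373% of the Itpripl2 set and 0.0832% to 0.174% of the Pantr1 set. Neat1, the noncoding scaffold of paraspeckles, had 18 counts in the Itpripl2 set, spread over all 5 libraries, and 0 in the Pantr1 set. With fewer than 20 counts, Neat1 was not among the 295 genes. Its lowest share, 0.0201% in library 6, lay below what a gene at 0 in a Pantr1-set library could still hold. Neat1 led the 7 nuclear long noncoding RNAs in the tables, which held 0.0201% to 0.0642% of the Itpripl2 set and 0% of the Pantr1 set.

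Markers of other liver cell types were at or near 0 in both sets. The 12 Kupffer cell and macrophage markers had 1 count in all, for Vsig4 in library 8. Of the 8 endothelial markers, Stab1 was highest with 3 counts, and the list held at most 0.0275% of an Itpripl2-set library and 0.0287% of a Pantr1-set library. The 6 cholangiocyte markers and the 8 red cell and lymphocyte markers had no count in any CLIP library. The 6 neural markers, which include the Pantr1 neighbour Pou3f3, had 10 counts, of which Sox2 had 9. Nos3 is best known as an endothelial gene, and the listed endothelial markers were near 0 in the same libraries.

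Many leading genes had little RNA in hepatocytes, and so did a like share of all 295 genes examined. In the RNA libraries of hepatocytes labelled Tg, 25 of the 71 leading genes of the Itpripl2 set (35.2%) lay below 1 CPM. So did 29 of the 77 of the Pantr1 set (37.7%) and 115 of the 295 genes examined (39.0%). No RNA count was found for 6, 12 and 40 genes of these groups. Median RNA levels were 10.6 CPM for leading genes of the Itpripl2 set, 8.48 CPM for those of the Pantr1 set and 6.71 CPM for the 295 genes. Genes below 1 CPM nevertheless held 28.3%, 28.3%, 30.7%, 28.2% and 25.8% of CLIP counts in libraries 1, 3, 4, 6 and 10 of the Itpripl2 set, and 54.6%, 56.6%, 53.8%, 55.5% and 62.2% in libraries 2, 5, 7, 8 and 9 of the Pantr1 set. The ranges do not overlap, but the genes of the rule lie on opposite sides of 1 CPM and widen the gap. Pantr1, at 0 CPM in all 3 RNA pools, accounts for 15.9% to 18.5% of counts in the Pantr1 set. Itpripl2, at a mean of 118 CPM, accounts for 10.5% to 14.5% of counts in the Itpripl2 set.

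RNA levels of the heads of each set covered a wide range. In the Itpripl2 set, Zfhx3 was at 140 ± 37.0 CPM and Itpripl2 at 118 ± 59.4 CPM in hepatocytes labelled Tg (SD, n = 3), while Nos3 was at 0.523 ± 0.0600 CPM and Foxd1 had no RNA count. In the Pantr1 set, F11r was at 321 ± 13.5 CPM and Me1 at 109 ± 8.48 CPM (SD, n = 3). Wnt11, the second gene of that set, was at 0.838 ± 0.273 CPM, and Acer1 had no RNA count. Over the 295 genes, CLIP share and RNA level had a Spearman correlation of 0.064 to 0.10 in the 5 libraries of the Itpripl2 set and of -0.071 to -0.012 in the 5 of the Pantr1 set. These are correlations across genes within single libraries and describe near-absent rank relations.

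**Figure D4:**
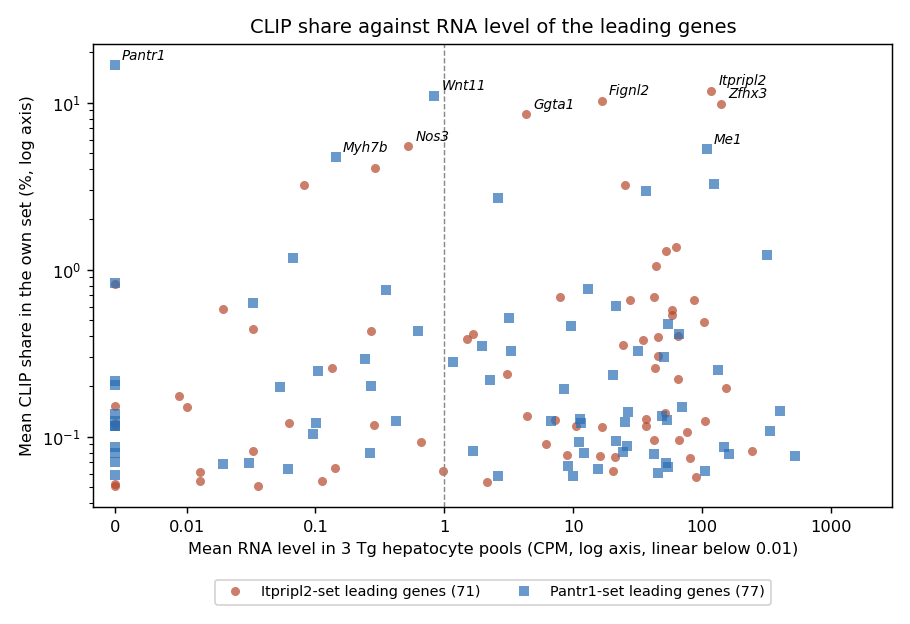
Each point is a leading gene, a circle for the Itpripl2 set and a square for the Pantr1 set, placed by its mean RNA level in 3 pools of hepatocytes labelled Tg (CPM, log axis, linear below 0.01) and its mean CLIP share in its own set (%, log axis). The dashed line marks 1 CPM, below which lie 25 of the 71 genes of the Itpripl2 set and 29 of the 77 of the Pantr1 set, among them Nos3, Pantr1, Wnt11 and Myh7b.

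Sequence features of the leading genes were read from the longest GENCODE M21 transcript of each gene, on the transcript's own strand, since the tables give no read positions. Median GC content was 53.9% for the Itpripl2 set (71 genes), 50.5% for the Pantr1 set (76 genes with a transcript) and 49.7% for 11679 genes at 1 CPM or more in hepatocytes labelled Tg. A1CF is known from selection of RNA in vitro to favour AU-rich letters such as TAATTA and TAATTG. These were found 0.279 times per kilobase in leading genes of the Itpripl2 set, 0.203 times in those of the Pantr1 set and 0.353 times in the expressed genes. The first motif can run into the second by its last letters, TA. The letters GATGCGG, at the end of primer DP5a, were in 12.7%, 11.8% and 9.92% of the transcripts of these 3 groups. The letters GTGTCAG, which pair with the end of DP3, were in 32.4%, 27.6% and 27.1%. Median transcript lengths of the 3 groups were 4010, 3718 and 3359 bases, and these percentages were not adjusted for length. Among the 295 genes examined, 293 had a transcript. Of these, 12.6% held GATGCGG and 30.0% GTGTCAG, and the AU-rich letters were found 0.278 times per kilobase. A match to such letters describes a transcript and is not a binding or priming site.

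Some leading genes share exonic bases with another annotated gene, 20 of 71 for the Itpripl2 set and 26 of 77 for the Pantr1 set. Such sharing was about as common elsewhere, in 86 of the 295 genes examined and 3317 of 11730 genes at 1 CPM or more. The strand setting of the counting is not given in the sources used here, so reads of such genes cannot be told apart from those of their neighbours. Among the heads of the sets, Nos3, Grin3b, Wnt11, Me1, Myh7b, Acvrl1, Atp6v0a4, Trim35, Cdh24 and Ptchd1 are of this kind.

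Whether the leading genes differed in RNA between A1cf genotypes was tested in the RNA libraries, which took no part in forming the sets. Between hepatocytes labelled Tg and WT hepatocytes, 434 of 13770 tested genes passed an adjusted p of 0.05 with edgeR (3.15%; 211 up, 1.53%, and 223 down, 1.62%). Of the leading genes of the Itpripl2 set, 51 were tested and 0 passed in edgeR. Of those of the Pantr1 set, 55 were tested and 1 passed (1.82%). Before adjustment, p lay below 0.05 in 18 genes of the Itpripl2 set (35.3%) and 14 of the Pantr1 set (25.5%), against 28.9% of all tested genes. DESeq2 called 11 of the 51 tested genes of the Itpripl2 set and 7 of the 55 of the Pantr1 set, against 2026 of all 13770. The median log2 fold change was -0.12 for the Itpripl2 set, -0.21 for the Pantr1 set and -0.02 over all tested genes.

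The gene that passed was Lysmd2, a LysM domain protein. Its TMM-scaled RNA level was 17.0, 15.6 and 15.6 CPM in the 3 pools of hepatocytes labelled Tg, against 8.99, 7.26 and 8.77 CPM in the 3 WT pools. The groups did not overlap, and the log2 fold change was 0.91 ± 0.15 (SE, edgeR adjusted p = 0.0339). The call was lost in each fit without 1 pool except the one without Tg pool 3, with an adjusted p of up to 0.167. Nearest to the threshold after it were Znrf2, a ubiquitin ligase, in the Itpripl2 set at -0.70 ± 0.15 (SE, edgeR adjusted p = 0.0541) and Xpo4, a nuclear transport receptor, in the Pantr1 set at -1.32 ± 0.27 (SE, edgeR adjusted p = 0.0536). Ppp2r2a, Abcc12 and Bach2 of the Itpripl2 set and Trim35 and Cdh24 of the Pantr1 set came next, all with a lower estimate in hepatocytes labelled Tg and none past the threshold (edgeR adjusted p of 0.0598 to 0.0672).

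Between KO and WT 6NJ liver, 475 of 15942 tested genes passed (2.98%; 239 up, 1.5%, and 236 down, 1.48%). Of the leading genes of the Itpripl2 set, 54 were tested and 0 passed in edgeR. Of those of the Pantr1 set, 55 were tested and 1 passed (1.82%), Oplah, the oxoprolinase of the glutathione cycle. Oplah was at 257, 276 and 276 CPM in the 3 KO pools, against 195, 191 and 186 CPM in the 3 WT 6NJ pools, with a log2 fold change of 0.51 ± 0.08 (SE, edgeR adjusted p = 0.0138). Without KO pool 1, KO pool 3 or WT 6NJ pool 2 it no longer passed, with adjusted p of 0.0599, 0.0622 and 0.0650. Before adjustment, p lay below 0.05 in 20 genes of the Itpripl2 set (37%) and 10 of the Pantr1 set (18.2%), against 18.4% of all tested genes. DESeq2 called 2 of the 54 tested genes of the Itpripl2 set and 2 of the 55 of the Pantr1 set, against 892 of all 15942. In KO liver the median log2 fold change was 0.08 for the Itpripl2 set, 0.01 for the Pantr1 set and -0.01 over all tested genes.

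By the adjusted edgeR threshold, at most 1 leading gene of a set passed in either comparison. The shares at an unadjusted p below 0.05 were higher for the Itpripl2 set than over all tested genes in both. With DESeq2 its share was higher in hepatocytes (11 of 51, against 2026 of 13770) and lower in liver (2 of 54, against 892 of 15942). Whether these shares differ from those of all genes was not tested. In bulk RNA, fewer cells of a type and less RNA per cell cannot be told apart. Plcb3, a phospholipase C of the Itpripl2 set, was at 0.37 ± 0.09 in KO against WT 6NJ liver (SE, edgeR adjusted p = 0.0692), the nearest to the threshold in that set.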

How the data were processed

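The members and gene lists were chosen with earlier results of these data known. Per the submitters' processing notes, the authors used bcl2fastq, STAR 2.0.4b, the build GRCm38 and featureCounts 1.45 of Subread. How strands, multiply aligned reads and duplicate CLIP reads were handled, and which annotation was counted, is not given in the sources used here. The authors deposited a raw count per gene for 41388 genes in each library. The deposited CPM are these counts scaled to a common total and the deposited RPKM divide them further by gene length; both were recomputed within 4.9e-10 and served as checks and, for CPM, as RNA levels.

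A share is a gene's count over the library's total gene count, with 95% Wilson intervals (scipy 1.17.1, Python 3.11.15). Genes with fewer than 20 counts over the 10 libraries were not examined for overlap between the sets. Listed genes below that limit, such as Neat1 and Eef2, are given by their counts as description only. Gene positions and types are from GENCODE M21, matched for 40340 identifiers, and names from a list with 40254. RNA counts were filtered with filterByExpr, scaled by TMM and tested with edgeR 4.0.16 quasi-likelihood tests in R 4.3.3, two-sided, with Benjamini-Hochberg adjustment over all tested genes. Replicates are the labels' pools. Each comparison was fitted on its own 6 libraries. Both fits were tested on simulated data with known changes. DESeq2 1.42.0, no filter, a replicate block and leaving out each library were the alternatives.

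Named genes were Itpripl2, Pantr1, A1cf and Apob, the 15 genes of highest mean share in each set among those that do not overlap, the 8 of highest smaller set mean, the highest member of each list, and the 4 leading genes of each set with the smallest p in each RNA comparison; 2 of the genes so named are not reported here. Same-numbered RNA pools were not treated as pairs, since their deviations correlated at 0.69, -0.51 and -0.03 in hepatocytes and 0.06, 0.04 and 0.01 in liver.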

Additional observations from a re-analysis of the deposited data

Results flagged for a closer look

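Single libraries stood apart from the other 4 of their set in 7 of 51 groups of shares examined with Dixon's test, which flags about 1 group in 20 by chance. Library 1 was high among the Itpripl2 set for Itpripl2 (14.5%, others 10.5% to 11.6%) and Pkdcc (1.28%, others 0.955% to 1.02%). Library 3 was high for Sec14l2 (1.03%, others 0.789% to 0.815%). Library 6 was high for Wnt11 (0.111%, others 0.0183% to 0.0373%), a gene that heads the other set. In the Pantr1 set, library 9 was low for Me1 (3.05%, others 5.31% to 6.15%) and Ptchd1 (0.409%, others 0.660% to 0.738%). Library 2 was high for Zfhx3 (0.347%, others 0.0277% to 0.114%), a gene that heads the Itpripl2 set. The source of these single-library values was not tested.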

How the results depend on the processing

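Of 710 recomputed mean shares of single genes 685 moved by less than 1 SD, and of 322 recomputed list and class shares 318 did. Leaving out a single library cannot move the mean of its set by 1 SD of its libraries. Recomputations of that kind could therefore not fail, and these totals are no measure of stability. The genes higher throughout one set numbered 69 to 80 for the Itpripl2 set and 63 to 84 for the Pantr1 set when single libraries were left out. The main setting gave 78 and 77 of 295 genes examined. At a minimum of 10 pooled counts 123 of 547 genes were higher throughout the Pantr1 set. At a minimum of 50, 134 genes were examined, of which 50 were higher throughout the Itpripl2 set and 37 throughout the Pantr1 set. These counts thus follow the number of genes examined. Without single libraries the median overlap was 75.7% to 79.7%, 72.8% to 77.8% and 11.5% to 12.1% within the Itpripl2 set, within the Pantr1 set and across them. It was 63.2%, 65.4% and 21.1% without the 10 most abundant genes, and 13.3% across the sets without Itpripl2 and Pantr1. Leaving out the 15 genes of single libraries, chosen after seeing the data, kept the counts at 78 and 77. None of the 15 was a leading gene, so leaving them out could hardly change these counts.

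In the RNA comparisons the number of calls depended on the method. For hepatocytes labelled Tg against WT, DESeq2 called 2026 of 13770 genes tested. No filter gave 669 of 24150, the replicate block 21 of 13770, and fits without single pools 0 to 4934 calls. Leading genes of the Itpripl2 set gave 11 of 51, 2 of 65, 0 and 0 to 18 calls in the same order. Those of the Pantr1 set gave 7 of 55, 2 of 68, 0 of 55 and 0 to 20. The highest values all came without Tg pool 3. They were 18 of 51 and 20 of 56 leading genes, against 4934 of 14103 genes tested. For KO against WT 6NJ liver, DESeq2 called 892 of 15942 genes tested. No filter gave 1079 of 26361, and fits without single pools 137 to 645 calls. Leading genes of the Itpripl2 set gave 2 of 54, 2 of 70 and 0 to 1 calls in the same order. Those of the Pantr1 set gave 2 of 55, 3 of 71 and 0 to 1. The cause was not tested. A reversal was looked for only in the 16 log2 fold changes of named genes, and none of them changed sign under the alternatives run. Totals of 6151 to 10902 CLIP counts limit what can be seen below about 0.05% of a library.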
